A study of Mus musculus with 4 samples.

Results

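The genes described here encode connexins, the subunits of gap junction channels, and a pannexin, a related channel protein: Gja1, Gja4, Gjb1, Gjb2, Gjb6, Gjc1, Gjd2 and Panx1. They were chosen by name among the genes of the array, and every non-control probe that carried 1 of these names was taken. This gave 8 probes, 1 per gene, out of 39429 probes and 29924 gene names on the array. RNA was measured on 4 dual-colour Agilent arrays, each of which set a Sox2-Tbx2LOF pool against a control pool. The pools held the basal parts of organs of Corti, the sensory epithelium of the cochlea, from NMRI mouse embryos at E18.5 (embryonic day). Sox2-Tbx2LOF embryos were labelled Sox2(creERT2);Tbx2(fl/fl) and controls Tbx2(fl/n.d.), where the other Tbx2 allele was left undetermined. CreERT2 is a recombinase that tamoxifen activates, and since it was knocked into Sox2, only cells with active Sox2 at that time can lose Tbx2. Pregnant dams of both groups were given 4 mg of tamoxifen at E16.5. Per the study's methods, progesterone was also given at this stage, and controls lacked the recombinase. The groups thus differed in the recombinase and in the Sox2 allele that carries it as well as in Tbx2, and these cannot be told apart here. The matings that gave the Sox2-Tbx2LOF embryos also carried a fluorescent reporter allele (R26 mTmG). Each pool combined several embryos of 1 sex, so that there were 4 pools per genotype. Arrays 1 and 2 held female pools and arrays 3 and 4 male pools. The Sox2-Tbx2LOF pool was labelled with Cy3 on arrays 1 and 3 and with Cy5 on arrays 2 and 4.

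A connexin crosses the membrane several times, a ring of connexins forms a hemichannel, and the hemichannels of neighbouring cells dock to a channel through which ions and small metabolites pass. Supporting cells of the cochlea are coupled in this way into networks that spread potassium and glucose, while hair cells are not coupled. Before the onset of hearing, ATP released by the columnar supporting cells of the inner side starts calcium waves that travel through the supporting cells, and connexin hemichannels have been held to be a route of that release. Gjb2 (Cx26) and Gjb6 (Cx30) form most gap junctions of the cochlea, and both genes have been linked to deafness.

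Because connexins are related in sequence, the probes were compared with each other. Each probe is 60 bases long. The first 30 bases are given for the 2 main cochlear connexins, for Gja1 and Gja4, which are members of the other large connexin subfamily, and for Gjb1, the nearest relative of Gjb2 and Gjb6 among the genes measured. Capitals mark the longest run within these bases that also occurs in the probe of another of the 8 genes.
Gjb2: CAAGTTGAaccattaccactatgccttatg
Gjb6: ttcaTTGGACAatatacattgccgattgct
Gjb1: tccccagttcccaaggcCCCTCTctctgca
Gja1: cTACACATTAActcagaacttgtattctga
Gja4: acccagcgcCAAGTTGActttcgagcctcc
The run in capitals is 8 bases long for Gjb2 and is the one shared with Gja4. Over the full probes, the longest run shared by any of the 28 pairs of probes had 10 bases (Gja1 with Gjb1). None of the 8 probes therefore repeats a long stretch of another. The probes were not compared with whole transcripts, so whether a probe also matches the transcript of another connexin was not tested. On the genome build mm9, as the array files give it, the Gjb2 probe lies at chr14:57717629-57717688 and the Gjb6 probe at chr14:57742226-57742285, both on the minus strand. The 2 probes are 24.5 kb apart. The Gja1 probe lies at chr10:56109814-56109873 on the plus strand, and the Gja4 probe at chr4:126988848-126988907 and the Gjb1 probe at chrX:98580902-98580961 lie on the minus and the plus strand, respectively. The Gjc1 probe is at chr11:102661010-102661069, the Gjd2 probe at chr2:113835432-113835491 and the Panx1 probe at chr9:14810250-14810309, all on the minus strand. The files do not state the exon, but place the Gjb2 probe at base 2154, the Gjb6 probe at base 1959 and the Gja1 probe at base 2693 of the respective transcript.

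Of 39429 probes, 28104 were well above background on at least 3 arrays in either group and were tested, and all 8 connexin and pannexin probes were among them, with 4 of 4 arrays above background in both groups. Ratios are log2 of Sox2-Tbx2LOF over control, so that 0 is no difference and a fold change of 1.5 is 0.58. No spot was saturated. Per-array ratios of all tested probes correlated with r = 0.43 and 0.46 between arrays of the same dye orientation and with r between -0.28 and -0.09 between arrays of opposite orientation, and the test carried a term for the dye. The targeted gene Tbx2 was lower on 4 of 4 arrays, with a log2 ratio of -0.15 ± 0.047 (SE) and an adjusted p of 0.313 (limma), and its probe lies at base 3502 of the transcript. Whether that base lies inside the floxed part is not given in the sources used here, so that the probe may check nothing of the deletion. The study's own staining for TBX2 protein, after tamoxifen at the same stage, found none in recombined hair and supporting cells at E18.5. Sox2, whose locus carries the recombinase, had a log2 ratio of 0.23 (limma, adjusted p = 0.0876). The tissue carried the transcripts of hair cells and supporting cells: all 7 hair cell and all 8 supporting cell markers were above background. The inner hair cell transporter gene Slc17a8 fell by 0.66 on the log2 scale in Sox2-Tbx2LOF pools (limma, adjusted p = 0.000291).

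None of the connexin and pannexin genes passed the test. The median SE of their ratios was 0.0515 (limma), beside 0.0512 over all tested probes. Changed means here that a probe had at least a 1.5-fold difference in either direction with a limma p under 0.05 after adjustment. This held for 70 of 28104 tested probes (0.249%) and for 0 of 8 connexin and pannexin probes. At an adjusted p under 0.05 alone the counts were 276 of all probes (0.982%) and 0 of 8. At an unadjusted p under 0.05, 1999 of all probes (7.11%) and 2 of 8 passed, namely those of Gja1 and Gjb2. The ratio had the same sign on 4 of 4 arrays for 2545 of all probes (9.06%) and for 1 of 8, which was Gja1. SAM, the test named in the methods, was computed here on channel levels with the same 1.5-fold minimum. No mean ratio of the 8 genes reached that minimum, so SAM could not call any of them and adds no separate evidence. The mean ratio was above 0 for 3 genes and below 0 for 5, beside 14588 above and 13516 below among all tested probes. The median over the 8 genes was -0.03, beside 0.0022 over all tested probes. The 95% intervals of the 8 mean ratios ran from -0.30 to 0.19, which is a fold change between 0.812 and 1.14. All 8 intervals thus lay inside a 1.5-fold change in either direction, at the scale of RNA from the whole tissue. In pooled tissue, fewer cells of a type and less RNA per cell cannot be told apart.

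Among the beta connexins, Gjb2 showed the lower ratio and Gjb6 hardly any. The normalised log2 level of Gjb2 was 15.46, 15.65, 15.54 and 15.56 in the Sox2-Tbx2LOF pools of arrays 1 to 4. In the control pools it was 15.65, 15.63, 15.77 and 15.72. The ratio was below 0 on 3 arrays and about 0 on array 2, where the female Sox2-Tbx2LOF pool nearly equalled its control. The log2 ratio of Gjb2 was -0.14 ± 0.051 (SE, limma, 95% interval -0.26 to -0.03), with an unadjusted p of 0.0218 that did not hold after adjustment (adjusted p = 0.48). The levels of both groups overlapped. Levels of one gene can be compared across pools, but not with those of another gene, since each probe has its own brightness.

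Gjb6 had levels of 14.11, 14.05, 14.23 and 13.96 in the Sox2-Tbx2LOF pools and of 13.97, 14.23, 14.07 and 14.20 in the control pools. Its ratio changed sign with the dye. It was 0.14 and 0.17 where the Sox2-Tbx2LOF pool was in Cy3, and -0.18 and -0.24 where it was in Cy5. The mean over the balanced dye swap was -0.03 ± 0.047 (SE, limma, 95% interval -0.13 to 0.08, adjusted p = 1.00). Gjb1 (Cx32), best known from liver and from myelinating Schwann cells, had levels of 9.74, 9.71, 9.68 and 9.87 in the Sox2-Tbx2LOF pools, and the control pools lay between 9.78 and 9.88. Its ratio was below 0 on 3 of 4 arrays, and the mean of -0.06 had a 95% interval of -0.18 to 0.06.

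**Figure D1:**
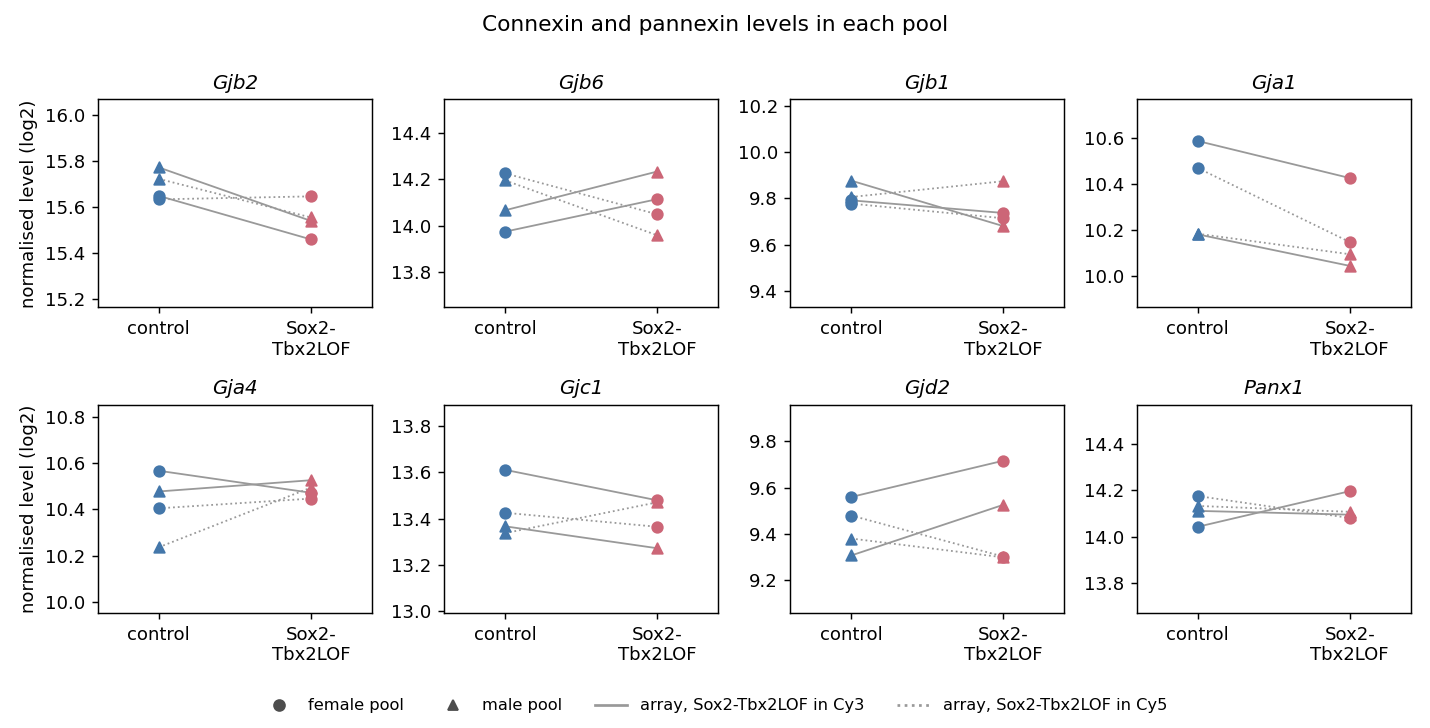
Normalised log2 level (y axis, a range of 0.9 log2 units in each panel) of each gene in the control and the Sox2-Tbx2LOF pool (x axis), with a line joining the 2 pools of an array, circles for female and triangles for male pools, and dotted lines where Sox2-Tbx2LOF was labelled with Cy5. All 4 lines slope down for Gja1, the lines of Gjb6 and Gjd2 cross by dye, and the groups overlap in all 8 panels. The share of all tested probes with such overlap is not given here.

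Among the alpha connexins, Gja1 (Cx43), the most widely expressed connexin of the body, had the lowest ratio of the 8 genes. Its level was 10.43, 10.15, 10.05 and 10.10 in the Sox2-Tbx2LOF pools and 10.59, 10.47, 10.18 and 10.18 in the control pools. Within every array the Sox2-Tbx2LOF pool was the lower one, with ratios of -0.16, -0.32, -0.14 and -0.09. The levels of the groups overlapped across arrays, and female pools ran from 10.15 to 10.59 while male pools ran from 10.05 to 10.18. The log2 ratio was -0.18 ± 0.054 (SE, limma, 95% interval -0.30 to -0.05). Its unadjusted p of 0.0105 gave an adjusted p of 0.313. In fold terms, the interval of Gja1 ran from 0.812 to 0.964. Gja4 (Cx37), a connexin of arterial endothelium, had ratios of -0.10, 0.04, 0.05 and 0.26, and the mean was 0.06 with an interval of -0.06 to 0.19. The male control pool of array 4 was the lowest of the 8 pools for Gja4, at 10.24, while the other pools lay between 10.40 and 10.57.

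Gjc1 (Cx45), known from the heart and from smooth muscle of vessels, had levels of 13.48, 13.36, 13.27 and 13.47 in the Sox2-Tbx2LOF pools and of 13.61, 13.43, 13.37 and 13.34 in the control pools. The ratio was below 0 on arrays 1 to 3 and above 0 on array 4, and the mean was -0.04 with an interval of -0.16 to 0.08. Gjd2 (Cx36), the connexin of electrical synapses between neurons, had levels of 9.72, 9.30, 9.53 and 9.30 in the Sox2-Tbx2LOF pools against 9.56, 9.48, 9.31 and 9.38 in the control pools. As for Gjb6, its ratio was above 0 on both arrays with Sox2-Tbx2LOF in Cy3 (0.16 and 0.22) and below 0 on both with Cy5 (-0.18 and -0.08), with a mean of 0.03. Panx1, which forms ATP-permeable channels in single membranes and no gap junctions, had the smallest range of levels. Its 8 pools lay between 14.04 and 14.20. Its mean log2 ratio was 0.0043 ± 0.051 (SE, limma) with an interval of -0.11 to 0.12.

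**Figure D2:**
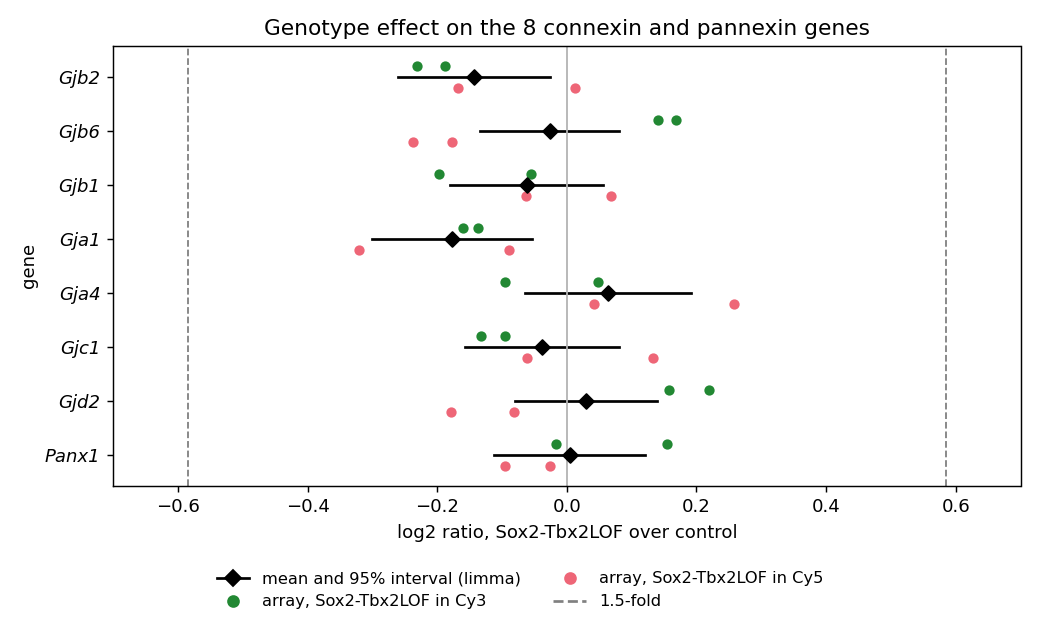
Log2 ratio of Sox2-Tbx2LOF over control (x axis) for each gene (y axis), with the limma mean and 95% interval in black, single arrays in green (Sox2-Tbx2LOF in Cy3) and red (Sox2-Tbx2LOF in Cy5), and dashed lines at a 1.5-fold change. No interval reaches a dashed line, and those of Gja1 and Gjb2 lie below 0 before adjustment for multiple testing.

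The dye term was larger in size than the genotype term for 6 of the 8 probes, all but those of Gja1 and Gjb2. It was largest for Gjb6 with -0.18 and for Gjd2 with -0.16 (red over green, log2), and in Gja4, Gjb1, Gjc1 and Panx1 it lay between -0.06 and 0.09. For Gja1 it was -0.03 and for Gjb2 0.07. The median SD of the log2 ratio between the 3 or 4 spots used was 0.09 for Gja1 and 0.06 for Gjb2, while the SD of the ratio between the 4 arrays was 0.10 for Gja1 and 0.11 for Gjb2. For Gja1 the spread between spots was thus about as large as that between arrays, and it reached 0.14 on array 3. The probes of Gjb1, Gjb2 and Gjc1, lost 1 spot each to an outlier mark of the scanner software, and the other 5 kept all 16.

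The genotype effect was also compared between the sexes, with a term for sex by genotype added to the model. No tested probe passed at an adjusted p under 0.05 (limma, 0 of 28104, 0%), and 565 probes (2.01%) had an unadjusted p under 0.05, with 0 of 8 connexin and pannexin probes among them. The term had its smallest unadjusted p for Gja4, where the ratio was -0.03 in female and 0.15 in male pools. Gja1 had mean ratios of -0.24 in female and -0.11 in male pools, and Gjb2 of -0.09 and -0.20. With 2 arrays per sex this comparison is coarse.

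Other connexins were at low brightness or did not pass the test. Of 13 further connexin genes on the array, 4 were tested, Gja5 and Gjc3 among them, and the others, such as Gja3, Gja6, Gja10, Gjb5, Gjd3, Gjd4 and Gje1, were dim in both groups. At an adjusted p under 0.05, 0 of the 4 and 0 of the 2 further pannexins passed, beside 0.982% of all probes. Gjc3 (Cx29), a connexin of Schwann cells, was higher in the Sox2-Tbx2LOF pool on 4 of 4 arrays. Its levels were 9.40, 9.38, 9.38 and 9.31 in the Sox2-Tbx2LOF pools and 9.08, 9.19, 9.13 and 9.26 in the control pools. These levels did not overlap, and the log2 ratio was 0.21 ± 0.049 (SE, limma, adjusted p = 0.139). How many of all tested probes had levels without overlap is not given here. Panx3, a pannexin of cartilage and bone cells, also lay higher in all 4 Sox2-Tbx2LOF pools, at 6.79, 6.99, 7.002 and 6.77 against 6.51, 6.58, 6.71 and 6.65. It was above background on 4 arrays in Sox2-Tbx2LOF and on 3 in control, close to the limit of measurement, and its log2 ratio was 0.27 (limma, adjusted p = 0.0913). That value depended on the processing: the ratio of Panx3 was 0.86 with the scanner software's log ratio (limma, adjusted p = 0.0236), and the adjusted p was under 0.05 in 5 of 14 alternatives. Gja5 (Cx40), another arterial connexin, had ratios of 0.17 for its brightest probe (limma, adjusted p = 0.245) and -0.03 for a second one. The ratio of Panx2 was -0.01.

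Aqp4 and Ano1, which act beside the gap junctions, rose in Sox2-Tbx2LOF pools. Of 11 genes for cochlear ion and glucose transport, 1 passed at an adjusted p under 0.05, the water channel gene Aqp4, which is expressed by supporting cells. Its levels were 9.06, 9.03, 8.995 and 9.16 in the Sox2-Tbx2LOF pools, all above the control pools at 8.32, 8.76, 8.67 and 8.63. For its brightest probe, the log2 ratio of Aqp4 was 0.46 ± 0.076 (SE, limma, 95% interval 0.29 to 0.64, adjusted p = 0.0306), and array 1 had the largest of the 4 ratios at 0.73. The median ratio over its 2 tested probes was 0.38. The adjusted p of Aqp4 (limma) was not under 0.05 in 6 of 14 alternatives that give one. It was 0.0845 without array 1, 0.0927 without the filter on dim probes and 0.0968 without the dye term. In unpaired limma it was 0.0906, with the scanner software's log ratio 0.0724 and with the series matrix 0.54. Of 11 tested genes of ATP signalling, 1 passed, Ano1, which encodes a calcium-activated chloride channel (TMEM16A) that opens after ATP signals in the inner supporting cells of the immature cochlea. Its levels were 14.99, 15.03, 14.98 and 14.93 against 14.62, 14.57, 14.68 and 14.53. The groups were separate and the spread within each was small, so that the log2 ratio was 0.38 ± 0.047 (SE, limma, 95% interval 0.28 to 0.49, adjusted p = 0.00677). Both ratios were under the 1.5-fold minimum, so neither gene was called changed by the full rule.

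The other genes of these lists did not pass. Among the ion and glucose transport genes, Atp1b1, a subunit of the sodium-potassium pump, had a log2 ratio of 0.18 (limma, adjusted p = 0.301), and Slc2a1, a glucose transporter, of -0.11. The median of that list was 0.08, beside 0.0022 over all tested probes. Of its 11 ratios, 9 were above 0, beside 14588 of 28104 over all tested probes. In ATP signalling, 8 of 11 ratios were below 0, beside 13516 of 28104 over all tested probes, and the median was -0.03. P2rx3 was among the 8 by its brightest probe (-0.03), while the median of its 4 tested probes was 0.04. The ATP-hydrolysing enzyme gene Entpd2 had -0.27 (limma, adjusted p = 0.208), with single arrays between -0.62 and 0.25. The purine receptor gene P2ry1, through which ATP acts on inner supporting cells, was lower on 4 of 4 arrays with a log2 ratio of -0.17 (limma, adjusted p = 0.274). P2ry4 was dim in both groups. Of 16 genes for scaffolds, adhesion proteins and regulators of connexins, 0 passed, and their median was 0.02. The smallest p-values in that list belonged to Prkca, to the membrane linker gene Ezr (-0.12) and to Cdh1, an epithelial adhesion gene (0.12). Prkca, a kinase that phosphorylates Gja1 protein, had 0.14 for its brightest probe and a median of 0.05 over its 2 tested probes.

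**Figure D3:**
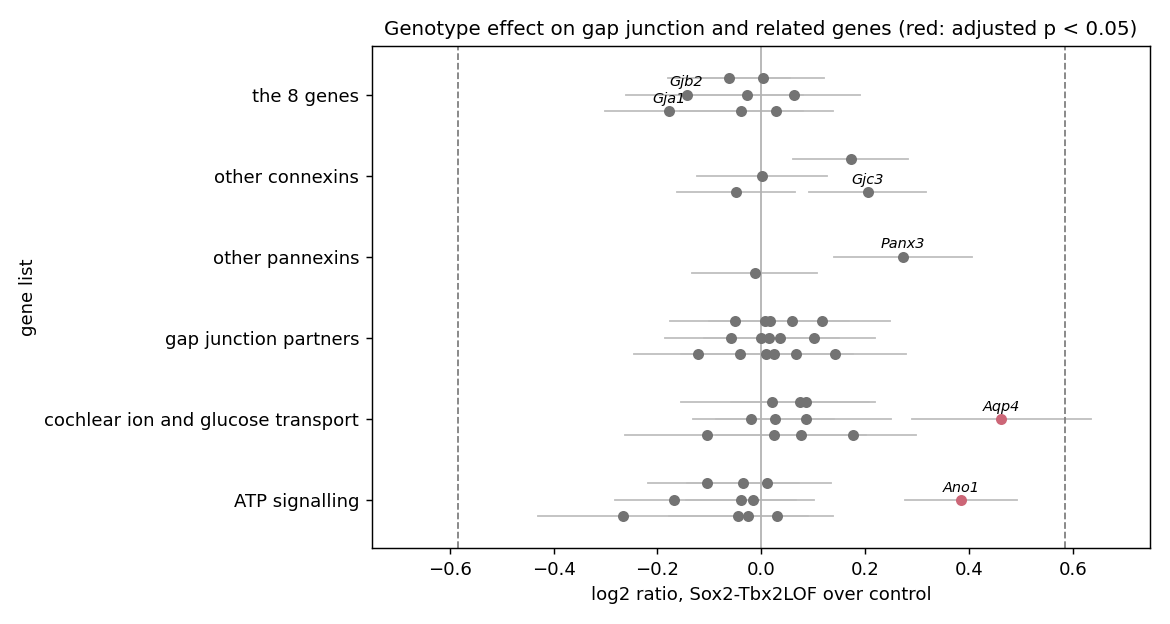
Log2 ratio of Sox2-Tbx2LOF over control (x axis) with its 95% interval (limma, grey line) for each tested gene, in rows by gene list (y axis), with dashed lines at a 1.5-fold change and red points for an adjusted p under 0.05. Only Ano1 and Aqp4 are red, and the 8 connexin and pannexin genes lie between -0.18 and 0.06.

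Several of these connexins are known from cell types outside the sensory epithelium, and markers of such cells were present. All 6 endothelial markers were above background and had ratios above 0, with a median of 0.08. Over all tested probes, 14588 of 28104 ratios were above 0. Cldn5 had the smallest p of the endothelial list with 0.21 (limma, adjusted p = 0.145). The summed linear level of the endothelial list ran from 16498 to 17898 in Sox2-Tbx2LOF and from 15256 to 16029 in control pools. Such a sum, here and for the lists below, is weighted towards the brightest probes and does not show a shift of every gene. Of 7 mesenchyme and fibrocyte markers, 6 had ratios above 0, with a median of 0.12. Col1a1 had 0.34 (limma, adjusted p = 0.0614) and Col3a1 0.23 (limma, adjusted p = 0.207). Their summed levels were 138958 to 152656 and 121371 to 138110. The medians of both lists were above 0, as were the ratios of Panx3, of the brightest Gja5 probe and of Gja4, whose interval included 0. Ratios below 0 were found for the second Gja5 probe (-0.03), Gjc1 (-0.04), Gja1 and Gjb2. The part of endothelial and mesenchymal cells in these values was not tested. Of 6 Schwann cell markers, 4 had ratios above 0, with a median of 0.01. The summed levels of the list overlapped (93590 to 104528 and 91028 to 112332). For 5 mural cell markers and 6 neuron markers, which bear on Gjc1 and Gjd2, the medians were 0.0014 and 0.03. No gene of these 5 lists passed at an adjusted p under 0.05. Of 7 hair cell markers, 3 had ratios above 0 and 4 below, with a median of -0.01. Besides Slc17a8, Otof also passed, with a log2 ratio of -0.40 (limma, adjusted p = 0.010). The summed level of the hair cell list was 20539 to 23150 in Sox2-Tbx2LOF and 22633 to 25879 in control pools, and these ranges overlapped. Of 8 supporting cell markers, 5 had ratios above 0, with a median of 0.01, and Prox1 had the smallest p with 0.17 (limma, adjusted p = 0.234). Of 5 markers of the greater epithelial ridge, the epithelium beside the inner hair cells, 0 passed, with Epyc at 0.23 and Crabp1 at -0.14.

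Across the 8 pools, after the mean of each dye had been taken off, the levels of Gja1 were most like those of Rps10 (Pearson's r = 0.99), Eif3h (0.99) and Nkd2 (0.98). The levels of Gjb2 were most like those of Kif2c (0.99), S100a6 (0.98) and H2ac23 (0.98). Those of Gjb6 were most like Ctf1 (0.98), Ccdc40 (0.97) and Pls1 (0.97). These are the highest values among 28104 probes over only 8 pools, and pools hybridised together share an array. The neighbouring genes Gjb2 and Gjb6 had r = 0.65, and Gjb6 ranked 1649 of 28104 probes for likeness to Gjb2, counting Gjb2 itself. Gja1 and Gjc1 had r = 0.88, the highest value of Gja1 with another of the 8 genes, while Gja1 and Gjb2 had r = -0.04.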

How the data were processed

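The deposited scanner files hold intensity values on a linear scale, the mean of each spot and the median of its surroundings per channel, from Agilent Feature Extraction 10.7.3.1 run by the authors, and, also deposited, a log10 ratio corrected by the scanner software. The deposited series matrix holds a score, a signed fold change per array, whose centring and steps are not given in the sources used here; it followed the ratios computed here with r between 0.937 and 0.954. Both served as alternatives.

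Background was corrected by normexp (limma 3.58.1, R 4.3.3, offset 50), followed by loess within arrays, with control spots at weight 0. Spots with outlier marks (3.23% to 3.56%) were left out, and the 4 spots of a probe were averaged. Levels were taken after quantile normalization of the average brightness. These steps assume that most genes do not differ, and the offset pulls dim ratios towards 0. A probe was tested if over 0.5 of its spots were well above background on at least 3 arrays in 1 group. limma was run on ratios with a dye term, with Benjamini-Hochberg adjustment over 28104 probes. Data were simulated with each probe's spread as moderated by limma, which draws it towards that of all probes, so noisy probes were simulated as quieter than measured. All changes of 1.5-fold were then recovered (100%) at an adjusted p under 0.05 without the minimum fold, and 8.26% of those calls were false. A fit with the spread modelled by level recovered 97% of them, with 12.1% false calls. Recovery by the rule with the minimum fold was not simulated. The number of arrays limits the precision.

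The genes and lists were chosen with earlier results of these data known. Named were all 8 genes, the other connexins and pannexins, in each pathway list those with an adjusted p under 0.05 and the 3 with the smallest p, at most 2 genes per marker list, the 3 genes most like Gja1, Gjb2 and Gjb6, and Tbx2 and Sox2. Some genes that this rule names are not reported here. Genes on several probes were represented by the brightest. Gene names were updated from a RefSeq table (GRCm38.p6) for 28328 probes by accession, and no coordinate was taken from it. Alternatives were other background and centring choices, no dim filter, no dye term, unpaired limma and SAM over 70 regroupings, the authors' ratios, kept marks and each array left out. A fit with the spread modelled by level was added after seeing the data. Markers of stria vascularis, melanocytes, macrophages and red blood cells were also listed: 0 genes of these passed at an adjusted p under 0.05, and their median ratios were -0.09, -0.09, -0.0037 and -0.08.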

Additional observations from a re-analysis of the deposited data

How the results depend on the processing

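For the 8 connexin and pannexin genes, 0 probes were called and 0 had an adjusted p under 0.05 under every alternative run that gives one, and the lowest adjusted p was 0.114 for Gja1 and 0.27 for Gjb2. The ratio of Gja1 ran from -0.23 to -0.12 and that of Gjb2 from -0.19 to -0.10. Gjc1 took the other sign under 1 alternative and Panx1 under 4, with ratios between -0.09 and 0.05. The count of probes called over the whole array was 124 instead of 70 with the scanner software's log ratio, 1 with the series matrix and 276 without a minimum fold, and from 66 to 106 with 1 array left out, 106 being without array 1; the cause was not tested beyond the construction of each. No probe had a sex by genotype term at an adjusted p under 0.05 with the scanner log ratio, and 2 listed pathway genes passed also with the median of all probes of a gene. Ano1 passed in 13 of 14 alternatives that give an adjusted p, all but the series matrix, and its ratio ran from 0.36 to 0.41. Aqp4 passed in 8 of 14, with a ratio from 0.36 to 0.57, and did not without the dim filter, without the dye term, in unpaired limma, with either of the authors' ratios or without array 1. SAM, which requires the minimum fold, called neither. Panx3 passed in 5 of 14, 1 of them without array 4 (adjusted p = 0.0103), and its ratio reached 0.86 with the scanner log ratio, which carries no offset. The ratio within an array already pairs the pools that share it, and in unpaired limma 0 of the 8 genes had an adjusted p under 0.05. Loess on ratios shows unequal change and no absolute amount, and signal over background limits Panx3 most.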
